A study of Mus musculus with 10 samples.

Results

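The proteasome genes of mouse microglia, with the 3 immunosubunit genes Psmb8, Psmb9 and Psmb10 set beside the constitutive subunits they replace, are described here across 10 RNA sequencing libraries. The members are the protein-coding genes whose GENCODE M21 symbol starts with Psm, a letter from a to g and a digit. The rule found 50 genes of the 55471 genes in the count tables, and all 50 were counted and tested. They comprised 7 alpha and 7 constitutive beta subunits of the 20S core, 3 immunosubunits, the thymic subunit Psmb11 and the testis subunit Psma8. The other members were 6 ATPases and 11 further subunits of the 19S regulator, 5 activators, the inhibitor Psmf1, 7 assembly chaperones and Psmc3ip. Psmc3ip encodes a protein of meiotic recombination and matched the pattern of the symbol without being a subunit. All libraries came from microglia, which are brain macrophages, in primary culture from wild-type (WT) mice, grown in medium with serum and antibiotics. In 5 libraries, labelled knockdown, the cells had received gapmers against the noncoding RNA 3222401L13Rik, and in 5 control libraries they had received control gapmers. A gapmer is an antisense oligonucleotide that makes RNase H cut its matching RNA. The labels do not give the age of the mice, the number of animals or the time after gapmer treatment. They do not say whether replicates were separate cultures, so p-values speak only of the spread among these 10 libraries, and that spread may be technical.

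The proteasome is the main protease of the cytosol and nucleus and degrades proteins that carry ubiquitin chains. Its 20S core is a barrel of alpha rings, which control entry, and beta rings, in which Psmb5, Psmb6 and Psmb7 carry the active sites. The 19S regulator caps the barrel, binds ubiquitin and unfolds substrates with a ring of ATPases. Interferon gamma is known to induce the immunosubunits Psmb8, Psmb9 and Psmb10, which take the places of Psmb5, Psmb6 and Psmb7 in newly built cores, and the activator genes Psme1 and Psme2. Immune cells such as macrophages are known to hold immunosubunits, and the peptides these cores release feed antigen presentation by major histocompatibility complex (MHC) class I.

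The libraries held 5593627 to 6636082 reads in the knockdown-labelled group and 4321316 to 5639040 reads in the control group. 3222401L13Rik was counted at 22, 38, 24, 33 and 29 reads in the knockdown-labelled libraries, against 30, 29, 28, 33 and 34 reads in the control libraries. Its log2 fold change was -0.17 (interval at 95% confidence from -0.63 to 0.29, adjusted p = 0.541 by edgeR), so the targeted RNA was not measurably lower under its own label. Directions below are those of the label, not of a shown loss of this RNA. Reads from the genes of 1135 odorant receptors, proteins of sensory neurons in the nose, gave each library a background density. It was 0.257 ± 0.0674 counts-per-million (CPM) per kilobase of exon in the knockdown-labelled libraries and 0.599 ± 0.147 in the control libraries (SD, n = 5 each). The part of a gene's reads that this density predicts from its exon length is called its background share. Of 10 microglial marker genes 9 were called higher with the label by the test described below. Of all tested genes 22.9%, and of those under a 5% background share 75.5%, were also called higher. The microglial markers had a median background share of 0.494%. Their summed levels were 3279 to 3801 CPM in the knockdown-labelled libraries and 2710 to 3216 CPM in the control libraries. The sum of 5 neuronal markers was 15.02 to 26.1 CPM in the knockdown-labelled libraries and 31.3 to 49.0 CPM in the control libraries, with a median background share of 50.3%. The part of the background and of these markers in the results below was not tested.

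Most proteasome genes were slightly higher in the knockdown-labelled libraries, by about as much as other genes with little background. Of the 50 members 35 were called higher, 1 lower and 14 in neither direction (edgeR quasi-likelihood test with TMM scaling, Benjamini-Hochberg adjusted p under 0.05 over 19263 genes, 5 libraries against 5). Their median log2 fold change was 0.23, or 1.17-fold. Among all tested genes 22.9% were called higher and 31.3% lower, with a median of -0.10. Fold changes followed the background share, and 34 of the 50 members had a share under 5%. Of these 34 members 31 were called higher and 0 lower, with a median of 0.24. All 4728 tested genes under a 5% share had the same median of 0.24, and 75.5% of them were called higher and 0.486% lower. The members under that share were close together, with an SD of 0.06 between their log2 fold changes. Their median SE was 0.07, and the SD over all genes under that share was 0.14. Of the other 16 members 4 were called higher, 1 lower and 11 in neither direction, with a median of 0.16. In bulk RNA a change in the number of cells and a change in RNA per cell cannot be told apart.

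Set against the other genes under a 5% background share, the members hardly moved as a group. With the libraries scaled on those genes alone, the median of the 50 members was -0.015, with 19 above 0 and 31 below. The 2 members called higher were Psmd4 (log2 fold change 0.10, adjusted p = 0.0498) and Psme1 (0.12, adjusted p = 0.00958). The 3 members called lower were Psmb11 (-1.08, adjusted p = 0.0028), Psmb3 (-0.51, adjusted p = 0.0136) and Psma3 (-0.39, adjusted p = 0.0452). With the same scaling 1.62% of all tested genes were called higher and 44.6% lower, and among the genes under a 5% share 6.32% were called higher and 5.46% lower. The direction of most members therefore depended on the scaling, and every rise given below is a rise with TMM scaling. The reads of all members together made up 0.335 to 0.339% of a library in the knockdown-labelled group and 0.310 to 0.327% in the control group, and the groups did not overlap. This rise was not particular to the members. With libraries scaled by their totals alone, the median log2 fold change was 0.025 for the members and 0.039 for tested genes under a 5% share. The part of background reads in it was not tested.

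**Figure D1:**
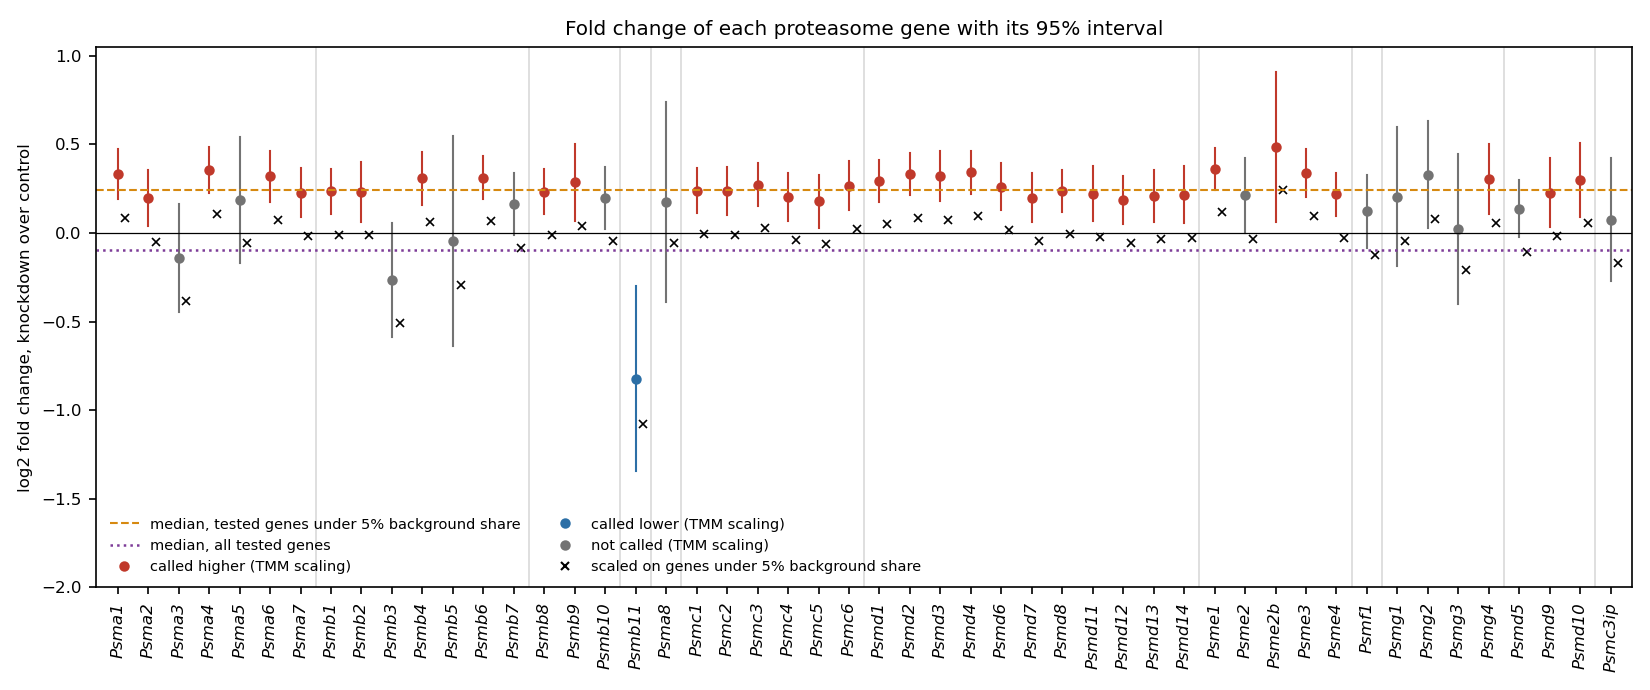
The log2 fold change (knockdown-labelled over control, TMM scaling, 5 libraries against 5) of each of the 50 members is drawn as a point with its 95% interval, coloured by the edgeR call, and crosses give the value with scaling on genes under a 5% background share. Grey vertical lines separate the roles, the dashed line marks the median of genes under a 5% share (0.24) and the dotted line the median of all tested genes (-0.10). Most points lie near the dashed line and most crosses near 0, while Psmb11, Psmb3, Psma3 and Psmb5 lie lower.

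**Figure D2:**
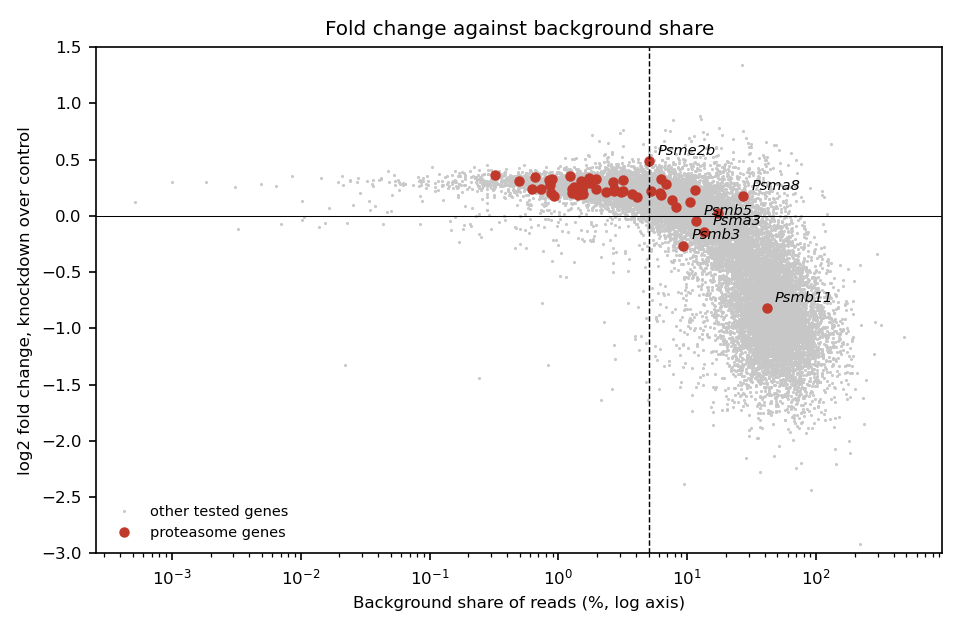
Each point is a tested gene, with its background share in percent on a log axis and its log2 fold change (knockdown-labelled over control, TMM scaling) on the other axis; genes with a share of 0 and fold changes outside the drawn range are not shown. The proteasome genes follow the band of the other genes, with 34 of 50 left of the dashed line at 5% and Psmb11 at a share of 41.2%.

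Levels are compared between genes in transcripts-per-million (TPM), which divides reads by the annotated exon length. Psme1 had the highest level of the 50 members, at 299.7 ± 29.3 TPM in the knockdown-labelled libraries and 254 ± 21.2 TPM in the control libraries (SD, n = 5 each). Psmb6 followed with 192 ± 18.3 TPM in the knockdown-labelled libraries and 168 ± 6.28 TPM in the control libraries. Psmd8, Psmd4 and Psmc1 came next, with 149, 147 and 126 TPM in the knockdown-labelled libraries and 137, 126 and 117 TPM in the control libraries. Psmb11 and Psma8 were lowest, at 1.56 and 3.35 TPM in the knockdown-labelled libraries and 3.02 and 3.19 TPM in the control libraries. Subunits that sit in equal numbers in a core without immunosubunits thus had unequal RNA levels. The 7 constitutive beta genes ran from 7.48 TPM for Psmb5 to 192 TPM for Psmb6 in the knockdown-labelled libraries, and from 8.46 to 168 TPM in the control libraries. The level of Psmb5 is subject to sequence it shares with a copy, described below. Psmb7, whose main transcript shares 0% of its 50-base runs with genes elsewhere, was at 22.0 TPM in the knockdown-labelled and 21.5 TPM in the control libraries. The order depends on the length used. With the length of the main transcript alone (the APPRIS principal transcript), Psma7 moved up from place 19 to place 5 in the control libraries, and Psme1 and Psmb6 kept places 1 and 2.

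**Figure D3:**
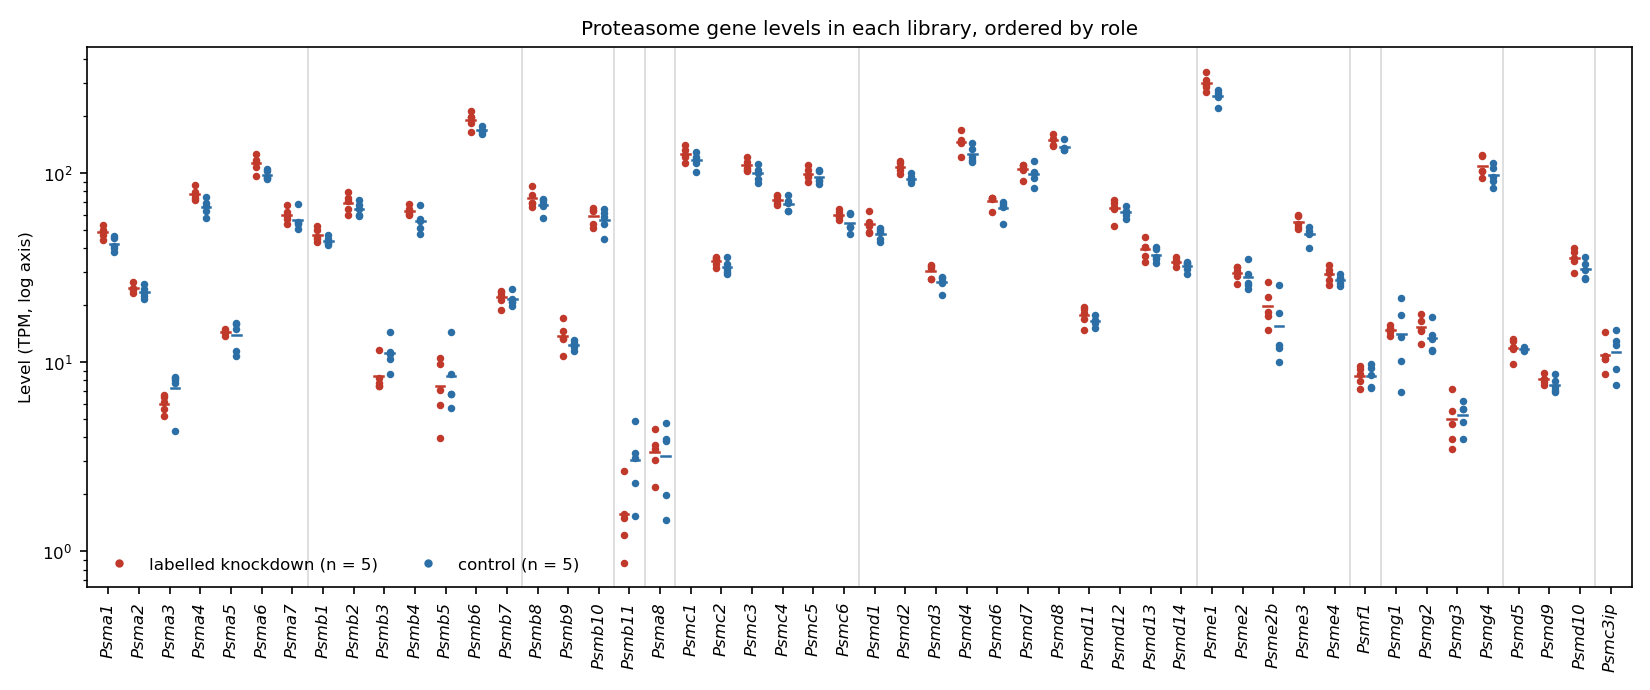
The level of each member in each library is drawn in TPM on a log axis, ordered by role, with knockdown-labelled libraries left of control libraries and a bar at the mean of each group of 5. Psme1 and Psmb6 stand highest and Psmb11 and Psma8 lowest, and the groups lie close together for nearly every gene.

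The alpha subunits form the outer rings of the core. Of 7 alpha genes 5 were called higher (Psma1, Psma2, Psma4, Psma6 and Psma7) and Psma3 and Psma5 were not called, with a median log2 fold change of 0.23. Beside this count, 22.9% of all tested genes and 75.5% of those under a 5% background share were called higher. Psma3 (13.5%) and Psma5 (6.29%) had shares above 5%. With scaling on genes under that share 0 alpha genes were called higher and Psma3 lower. Psma4 had the largest rise. It had 87.0, 91.3, 90.5, 86.7 and 86.4 CPM in the knockdown-labelled libraries, against 70.1, 66.3, 66.4, 69.9 and 72.5 CPM in the control libraries. The groups did not overlap, and the log2 fold change was 0.36 (SE 0.06, edgeR adjusted p = 1.46e-05), or 0.11 (adjusted p = 0.0806) with scaling on genes under a 5% background share. Psma3 had 11.7, 10.9, 13.5, 9.20 and 11.4 CPM in the knockdown-labelled libraries, against 13.5, 12.9, 8.10, 12.4 and 15.7 CPM in the control libraries. These groups overlapped, and the log2 fold change was -0.14 (SE 0.15, edgeR adjusted p = 0.44). Psma5 was also low, at 9.20 ± 0.792 CPM in the knockdown-labelled libraries and 8.07 ± 1.65 CPM in the control libraries (SD, n = 5 each), with overlapping groups and a log2 fold change of 0.19 (SE 0.18, edgeR adjusted p = 0.379).

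Among the 7 constitutive beta genes, 4 were called higher (Psmb1, Psmb2, Psmb4 and Psmb6) and Psmb3, Psmb5 and Psmb7 were not, with a median of 0.23. The same 22.9% and 75.5% stand beside this count, and Psmb3 (9.26%) and Psmb5 (11.6%) had background shares above 5%. Scaled on genes under a 5% share, 0 were called higher and Psmb3 lower. Psmb6, whose active site cuts after acidic residues, had 172, 186, 159, 168 and 177 CPM in the knockdown-labelled libraries, against 138, 127, 146, 131 and 151 CPM in the control libraries. The groups did not overlap, and the log2 fold change was 0.31 (SE 0.06, edgeR adjusted p = 3.72e-05). Psmb7, whose active site cuts after basic residues, had 36.9, 34.8, 40.3, 30.6 and 39.0 CPM in the knockdown-labelled libraries, against 37.0, 28.7, 34.4, 29.1 and 32.9 CPM in the control libraries. The groups overlapped, and the log2 fold change was 0.16 (SE 0.09, edgeR adjusted p = 0.109). Exons of Nek6 on the other strand overlap 11.8% of the exon length of Psmb7, and the strand setting of the counting is not given in the sources used here. Psmb3, a beta subunit without an active site, had 7.94, 10.2, 9.28, 11.1 and 8.18 CPM in the knockdown-labelled libraries, against 11.3, 9.56, 12.5, 13.1 and 9.64 CPM in the control libraries. Its groups overlapped, with a log2 fold change of -0.26 (SE 0.16, edgeR adjusted p = 0.156).

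Psmb5, which carries the site that cuts after hydrophobic residues and is the target of bortezomib, had few reads. It was counted at 23, 20, 11, 21 and 15 reads in the knockdown-labelled libraries, against 19, 25, 16, 13 and 14 reads in the control libraries. The groups overlapped fully, and the log2 fold change was -0.05 (SE 0.30, adjusted p = 0.901 by edgeR, with an interval at 95% confidence of -0.64 to 0.55). That interval holds both no change and the median rise of the other members.

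A near-identical copy of Psmb5 is annotated elsewhere. The processed pseudogene Gm3375 (chromosome 7, 3181093 to 3181888, plus strand, GRCm38) matches 784 of the 792 coding bases of Psmb5 (chromosome 14, 54614119 to 54618022, minus strand), or 99.0%, and carries 1 extra base after coding base 262. Psmb8 matches Psmb5 over 70.4% of 612 aligned coding bases. The stretch of 84 bases that begins at the codon of the catalytic threonine, coding bases 178 to 261 of Psmb5 and 217 to 300 of Psmb8 (chromosome 17, 34197721 to 34201454, plus strand), is shown because it tells which of the 3 genes a read can be assigned to. It was read from the GENCODE M21 transcripts, and capitals mark the 21 bases at which Psmb8 differs from Psmb5.
Psmb5: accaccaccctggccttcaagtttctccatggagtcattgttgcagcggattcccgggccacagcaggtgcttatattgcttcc
Gm3375: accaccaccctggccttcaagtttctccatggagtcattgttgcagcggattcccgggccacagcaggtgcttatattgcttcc
Psmb8: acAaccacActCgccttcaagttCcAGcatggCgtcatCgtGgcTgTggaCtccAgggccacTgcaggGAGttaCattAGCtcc
Over this stretch a read of Psmb5 and a read of Gm3375 have the same letters, and Psmb8 can be told from both.

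Gm3375 was counted at 14, 23, 35, 32 and 23 reads in the knockdown-labelled libraries, against 20, 11, 20, 14 and 14 reads in the control libraries. Over the 10 libraries it held 206 reads and Psmb5 177, with a background share of 8.84% for the copy. Its own log2 fold change was 0.59 (SE 0.28, edgeR adjusted p = 0.0688). Psmb5 and Gm3375 together were counted at 37, 43, 46, 53 and 38 reads in the knockdown-labelled libraries, against 39, 36, 36, 27 and 28 reads in the control libraries. Added together, the log2 fold change was 0.29 (SE 0.20, edgeR adjusted p = 0.222), so the value of Psmb5 turned from slightly negative to the size of the other members without being called. This sum was added after the values had been seen.

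Among the alpha and constitutive beta genes, low levels were mostly found in genes that share sequence with copies. In 5 of the 14 alpha and constitutive beta genes (Psma3, Psma4, Psma5, Psmb3 and Psmb5), at least 20% of the 50-base runs of the main transcript also occur in annotated genes elsewhere. Their levels were 6.03 to 77.6 TPM (median 8.49) in the knockdown-labelled libraries and 7.33 to 66.4 TPM (median 11.1) in the control libraries. The other 9 genes had 22.0 to 192 TPM (median 60.3) in the knockdown-labelled libraries and 21.5 to 168 TPM (median 56.0) in the control libraries. Psma4 was the 1 gene of the first set at a level like that of the second. Outside the core, Psmd2 shares 26.4% of its runs and stood at 108 ± 7.17 TPM in the knockdown-labelled and 93.2 ± 4.15 TPM in the control libraries (SD, n = 5 each), so a high level was also found with shared sequence. The activator genes Psme2b (69.3%) and Psme2 (59.3%) share more of their runs. They stood at 19.9 and 29.6 TPM in the knockdown-labelled libraries and at 15.6 and 28.1 TPM in the control libraries. This is a description, and how the authors' counting treated reads with several matches is not given in the sources used here.

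**Figure D4:**
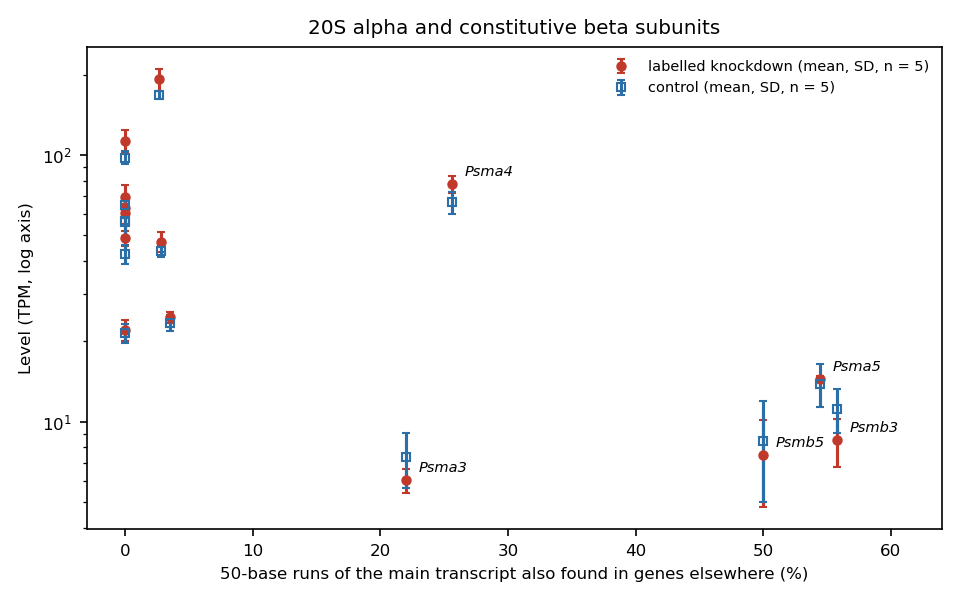
For the 14 alpha and constitutive beta genes the percent of 50-base runs of the main transcript that also occur in genes elsewhere is set against the mean level in TPM on a log axis, with the SD over 5 libraries as bars, for knockdown-labelled (filled) and control (open) libraries. Psma3, Psma5, Psmb3 and Psmb5 lie at 5 to 15 TPM with 22.0 to 55.8% shared, and the 9 genes with at most 3.53% shared lie above 20 TPM.

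The immunosubunit genes were expressed in both groups and were higher in the knockdown-labelled libraries by 0.20 to 0.29 on the log2 scale, with 2 of 3 called, beside 22.9% of all tested genes and 75.5% of those under a 5% background share. Psmb8, the counterpart of Psmb5, had 133, 121, 122, 108 and 112 CPM in the knockdown-labelled libraries, against 109, 93.9, 94.96, 97.5 and 111 CPM in the control libraries. The groups overlapped by a narrow margin, and the log2 fold change was 0.23 (SE 0.06, adjusted p = 0.00202 by edgeR, with an interval of 0.11 to 0.36). Psmb9, the counterpart of Psmb6, had 28.7, 28.6, 25.5, 20.3 and 18.7 CPM in the knockdown-labelled libraries, against 19.5, 18.5, 20.2, 18.1 and 23.4 CPM in the control libraries. Knockdown-labelled replicates 1 to 3 stood above every control library and replicates 4 and 5 did not, and the log2 fold change was 0.29 (SE 0.11, edgeR adjusted p = 0.0241). Psmb10, the counterpart of Psmb7, had 50.3, 59.6, 45.1, 44.9 and 43.6 CPM in the knockdown-labelled libraries, against 40.8, 40.1, 36.8, 41.1 and 53.4 CPM in the control libraries. Control replicate 5 stood above 4 of the 5 knockdown-labelled libraries, and the log2 fold change was 0.20 (SE 0.09, edgeR adjusted p = 0.0523), which was not called. Without control replicate 5 it was 0.32 (adjusted p = 0.00143), and it was also called when knockdown-labelled replicate 3, 4 or 5 was left out (0.24 to 0.26). With scaling on genes under a 5% background share the values of Psmb8, Psmb9 and Psmb10 were -0.01, 0.04 and -0.05, and none was called. Antisense exons overlap 14.7% of the exon length of Psmb8 (Gm20496, counted at 0 reads) and 5.79% of that of Psmb9 (Tap1, a peptide transporter subunit).

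The values of Psmb9 and Psmb10 differed in sign between the sequencing lanes. The labels give no lanes, and the numbers were read from lane codes in the names of the deposited data. By those codes lane 7 held replicates 1 to 3 of both groups and lane 8 held replicates 4 and 5. Psmb8, Psmb9 and Psmb10 had log2 fold changes of 0.35, 0.53 and 0.42 in lane 7 alone, all called (edgeR adjusted p = 7.9e-04, 0.00106 and 9.81e-04, 3 libraries against 3). In lane 8 alone they were 0.10, -0.07 and -0.07, none called (edgeR adjusted p = 0.581, 0.836 and 0.745, 2 libraries against 2). The activator gene Psme2 was at 0.49 in lane 7 (edgeR adjusted p = 0.00228) and -0.13 in lane 8 (adjusted p = 0.637). Psmb6 had 0.35 and 0.31 and Psme1 0.41 and 0.33 in lanes 7 and 8. The difference between lanes was tested with an interaction term over all genes, a test chosen after these values had been seen. It was -0.59 for Psmb9 (SE 0.22), -0.49 for Psmb10 (SE 0.17), -0.62 for Psme2 (SE 0.21) and -0.25 for Psmb8 (SE 0.13), lane 8 minus lane 7. The unadjusted edgeR p-values were 0.0074, 0.00439, 0.00424 and 0.0647, and each adjusted p was 0.965. By that edgeR test 0 of 19263 genes passed an adjusted p of 0.05 and 878 had an unadjusted p under 0.05, among them 7 members. Besides Psmb9, Psmb10 and Psme2 these members were Psmc6 (-0.44), Psma7 (-0.36) and Psmb4 (-0.31), and Psmg1 (0.85) in the other direction. Psmc6 had log2 fold changes of 0.47 and 0.03 and Psma7 0.40 and 0.04 in lanes 7 and 8. Unadjusted p-values under 0.05 were thus not confined to the immunosubunits and Psme2, and no difference between lanes passed adjustment.

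Relative to their constitutive counterparts the immunosubunits did not move beyond the spread between libraries. A ratio of 2 genes within a library does not depend on how libraries are scaled, and it is given here as the log2 ratio of reads per kilobase with 0.5 reads added. Psmb8 to Psmb5 was 2.99, 3.18, 4.06, 2.92 and 3.50 in the knockdown-labelled libraries, against 3.03, 2.24, 3.06, 3.38 and 3.51 in the control libraries. The difference of means was 0.29 (95% interval -0.39 to 1.00, exact two-sided permutation test, p = 0.397). Psmb9 to Psmb6 was -3.54, -3.67, -3.61, -4.004 and -4.20 in the knockdown-labelled libraries, against -3.78, -3.74, -3.81, -3.82 and -3.66 in the control libraries, a difference of -0.04 (interval -0.38 to 0.22, exact p = 0.754). Psmb10 to Psmb7 was 1.45, 1.78, 1.16, 1.56 and 1.17 in the knockdown-labelled libraries, against 1.15, 1.49, 1.10, 1.5004 and 1.70 in the control libraries, a difference of 0.04 (interval -0.34 to 0.41, exact p = 0.762). Adjusted over the 3 ratios each p was 0.762, and the smallest p that 5 libraries against 5 allow is 0.00794. As ratios the 3 intervals ran from 0.763 to 2.00, from 0.767 to 1.17 and from 0.793 to 1.33 times the control value, so shifts inside them were not detectable with 5 libraries a group. By lane the differences were 0.64, 0.17 and 0.22 in lane 7 and -0.23, -0.36 and -0.24 in lane 8, in the same order of pairs, and neither lane can reach an exact p under 0.05. With the reads of Gm3375 added to Psmb5, Psmb8 to Psmb5 averaged 2.05 ± 0.269 in the knockdown-labelled and 2.11 ± 0.332 in the control libraries (SD, n = 5 each), a difference of -0.06 (interval -0.49 to 0.39, exact p = 0.786).

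**Figure D5:**
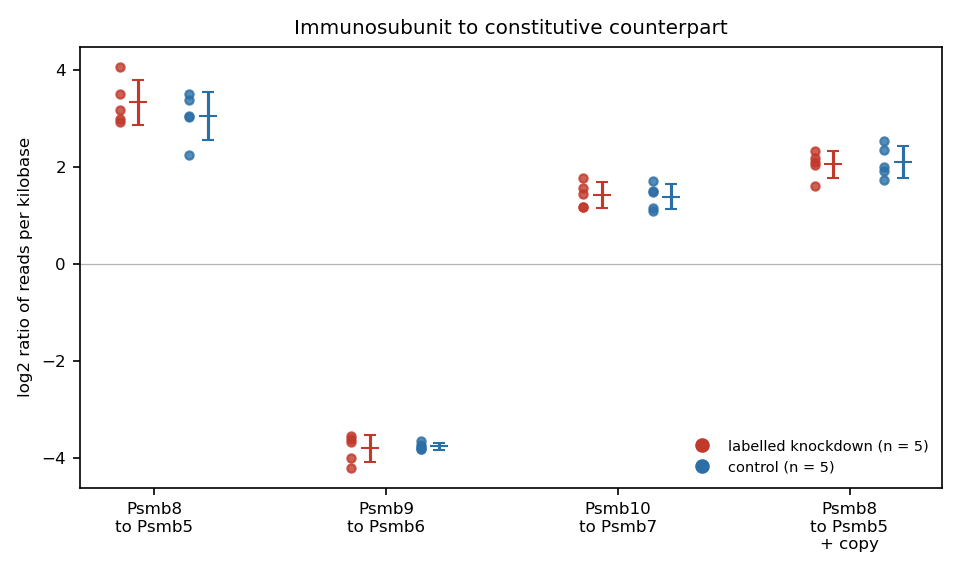
The log2 ratio of reads per kilobase of each immunosubunit to its constitutive counterpart is drawn for each library, knockdown-labelled left of control, with the mean and SD of 5 libraries beside the points; the last pair counts the reads of Gm3375 with Psmb5. Psmb8 lies above Psmb5 and Psmb10 above Psmb7, Psmb9 lies below Psmb6, and the groups overlap for every ratio.

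In level the 3 pairs differed in direction. Psmb8 was at 73.3 ± 7.54 TPM against 7.48 ± 2.70 TPM for Psmb5 in the knockdown-labelled libraries, and at 68.0 ± 6.04 against 8.46 ± 3.49 TPM in the control libraries (SD, n = 5 each). The level of Psmb5 is subject to the shared sequence described above. Psmb10 was at 59.2 ± 6.44 TPM against 22.0 ± 2.01 TPM for Psmb7 in the knockdown-labelled libraries, and at 56.5 ± 7.68 against 21.5 ± 1.72 TPM in the control libraries. Psmb9 was below its counterpart, at 13.8 ± 2.28 TPM against 192 ± 18.3 TPM for Psmb6 in the knockdown-labelled libraries, and at 12.3 ± 0.649 against 168 ± 6.28 TPM in the control libraries. With the length of the main transcript Psmb10 was at 63.3 and Psmb7 at 53.4 TPM in the knockdown-labelled libraries, and at 61.0 and 52.5 TPM in the control libraries, so the gap of that pair rests on the length used. With the same length Psmb8 was at 125 and Psmb5 at 6.13 TPM in the knockdown-labelled libraries, and at 117 and 7.02 TPM in the control libraries. Psmb9 was then at 30.7 and Psmb6 at 369 TPM in the knockdown-labelled libraries, and at 27.7 and 327 TPM in the control libraries, so both of these pairs kept their direction.

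Proteasome promoters are known to be bound by Nfe2l1 at antioxidant response elements, and immunosubunit promoters by interferon-regulated factors. The letters TGACNNNGC, searched on both strands of the 250 bases before each RefSeq gene start (GRCm38.p6), occurred in 5 of the 42 members in that table, or 11.9% (Psmb5, Psmb6, Psmc6, Psmd12 and Psmd9). They occurred in 11.5% of all 27025 genes. GAAANNGAA, the core of an interferon-stimulated response element, occurred in 3 members (Psmb3, Psmd4 and Psmd9) or 7.14%, and in 8.18% of all genes. TTCNNNGAA, the gamma-activated site, occurred in 2 members (Psmb8 and Psmg1) or 4.76%, and in 8.13% of all genes. The shares among the members were at or below those among all genes for the last 2 motifs and within 1 gene of it for the first, and a match describes letters only. The exon-free upstream windows of 2 constitutive genes and 1 immunosubunit gene are shown, 5′ to 3′ on the gene's strand, with TGACNNNGC in capitals. The Psmb6 window is chr11:70525107-70525356 on the plus strand, the Psmb5 window chr14:54618023-54618245 on the minus strand and the Psmb10 window chr8:105938445-105938642 on the minus strand.
Psmb6: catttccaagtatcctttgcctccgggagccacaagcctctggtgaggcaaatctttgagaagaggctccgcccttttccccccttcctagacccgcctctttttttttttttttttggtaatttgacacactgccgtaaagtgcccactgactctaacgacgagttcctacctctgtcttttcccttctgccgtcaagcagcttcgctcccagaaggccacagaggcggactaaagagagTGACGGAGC
Psmb5: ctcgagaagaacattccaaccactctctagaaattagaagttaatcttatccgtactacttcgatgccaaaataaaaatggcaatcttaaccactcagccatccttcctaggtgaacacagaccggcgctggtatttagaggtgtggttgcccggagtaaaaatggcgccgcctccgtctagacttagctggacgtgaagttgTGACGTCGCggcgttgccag
Psmb10: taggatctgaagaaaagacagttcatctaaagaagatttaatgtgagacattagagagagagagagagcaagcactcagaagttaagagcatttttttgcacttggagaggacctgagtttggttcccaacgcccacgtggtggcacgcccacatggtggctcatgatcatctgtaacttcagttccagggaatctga
The Psmb6 and Psmb5 windows each hold TGACNNNGC once and the Psmb10 window holds none of the 3 motifs.

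The tissue-restricted subunits were at the bottom of the range. Psmb11, the beta subunit of thymic cortical epithelium, had 31, 13, 18, 18 and 20 reads in the knockdown-labelled libraries, against 18, 45, 39, 34 and 30 reads in the control libraries. Knockdown-labelled replicate 1 and control replicate 1 lay on the far side of their groups, and the log2 fold change was -0.82 (SE 0.26, adjusted p = 0.00686 by edgeR, with an interval of -1.34 to -0.30). The background density predicted 41.2% of its reads, and with expected background reads subtracted the value was -0.99 (edgeR adjusted p = 0.127). Psma8, the alpha subunit of the testis, had 4.02 ± 0.997 CPM in the knockdown-labelled libraries and 3.53 ± 1.58 CPM in the control libraries (SD, n = 5 each), with a background share of 27.0% and a log2 fold change of 0.18 (SE 0.28, edgeR adjusted p = 0.617).

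All 17 members that belong to the 19S regulator were called higher with TMM scaling. The shares beside this count were 22.9% of all tested genes and 75.5% of those under a 5% background share. Genes of the 19S whose symbols lie outside the rule, such as Sem1, are not in this count. The 6 ATPase genes Psmc1 to Psmc6, which unfold substrates and push them into the core, had log2 fold changes of 0.18 to 0.27 with a median of 0.24. Psmc3 rose by 0.27 (137 ± 7.14 CPM in the knockdown-labelled and 114 ± 3.49 CPM in the control libraries, SD, n = 5 each) and Psmc5 by 0.18 (66.6 ± 6.39 and 58.7 ± 7.28 CPM in the same order). Psmc2 had 76.8, 85.6, 93.5, 74.1 and 85.7 CPM in the knockdown-labelled libraries, against 73.9, 62.8, 71.0, 71.5 and 73.6 CPM in the control libraries. The groups lay next to each other without overlap, with a log2 fold change of 0.24 (SE 0.07, edgeR adjusted p = 0.00315). With scaling on genes under a 5% background share the median of the 6 ATPases was -0.01 and none was called.

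The 11 non-ATPase genes had log2 fold changes of 0.19 to 0.34, with a median of 0.24. Psmd4, a ubiquitin receptor, had 190.2, 185, 210.3, 199.6 and 201 CPM in the knockdown-labelled libraries, against 166, 136, 156, 159 and 160.2 CPM in the control libraries. The groups did not overlap, and the log2 fold change was 0.34 (SE 0.06, edgeR adjusted p = 8.43e-06). Psmd2, a scaffold of the base that docks ubiquitin receptors, had 199, 214, 216, 198 and 217 CPM in the knockdown-labelled libraries, against 162, 154, 174, 158 and 182 CPM in the control libraries. These groups did not overlap either, and the log2 fold change was 0.33 (SE 0.06, edgeR adjusted p = 1.22e-05). Psmd1, the other large scaffold of the base, rose by 0.29 (186 ± 6.88 CPM in the knockdown-labelled and 152 ± 9.86 CPM in the control libraries, SD, n = 5 each). Psmd14, the deubiquitinase that removes ubiquitin chains at the pore, rose by 0.22 and its partner Psmd7 by 0.20. The lid subunit genes Psmd3, Psmd6, Psmd8, Psmd11, Psmd12 and Psmd13 rose by 0.19 to 0.32. With scaling on genes under a 5% background share the 11 genes had a median of -0.01, and Psmd4 alone was called.

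Activator genes had the highest median of any role with more than 1 member, 0.34 on the log2 scale. Of the 5 genes 4 were called higher, beside 22.9% of all tested genes and 75.5% of those under a 5% background share. With scaling on those genes the median was 0.09 and Psme1 alone was called. Psme1 and Psme2 encode the alternating subunits of the PA28 ring, which opens the core without ATP. Psme1 had 317, 318, 326, 319.7 and 307 CPM in the knockdown-labelled libraries, against 270.4, 226, 234, 232 and 273 CPM in the control libraries. The groups did not overlap, and the log2 fold change was 0.36 (SE 0.06, edgeR adjusted p = 3.14e-06). Psme2 had 25.9, 27.1, 29.2, 19.1 and 25.4 CPM in the knockdown-labelled libraries, against 19.1, 18.1, 22.3, 24.3 and 25.2 CPM in the control libraries. Its groups overlapped, with a log2 fold change of 0.21 (SE 0.11, edgeR adjusted p = 0.0795). Psme2b, a single-exon gene of nearly the same sequence as Psme2, had 6.81, 8.27, 6.41, 9.38 and 8.86 CPM in the knockdown-labelled libraries, against 6.74, 4.16, 4.05, 8.48 and 4.82 CPM in the control libraries. The groups overlapped, and the log2 fold change of 0.49 (SE 0.21, edgeR adjusted p = 0.046) was the largest of all members and the least precise of those called higher. Of the 50-base runs of Psme2b 68.7% also occur in Psme2, so the counts of these genes are uncertain. With the reads of both genes added, Psme2 had a log2 fold change of 0.27 (edgeR adjusted p = 0.011). This sum too was added after the values had been seen. In TPM Psme1 stood at 299.7 ± 29.3 and Psme2 at 29.6 ± 2.59 in the knockdown-labelled libraries, and at 254 ± 21.2 and 28.1 ± 4.28 in the control libraries (SD, n = 5 each), although their proteins form a ring together.

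The remaining activator genes were Psme3 and Psme4. Psme3, whose product forms a nuclear ring of its own, had 73.2, 80.1, 79.2, 74.1 and 83.0 CPM in the knockdown-labelled libraries, against 64.8, 56.9, 57.2, 60.3 and 68.4 CPM in the control libraries. The groups did not overlap, and the log2 fold change was 0.34 (SE 0.07, edgeR adjusted p = 6.3e-05). Psme4, which encodes the large single-chain activator PA200, rose by 0.22 (117 ± 3.16 CPM in the knockdown-labelled and 101 ± 5.51 CPM in the control libraries, SD, n = 5 each, edgeR adjusted p = 0.0027). Psmf1, named for inhibition of the core, had 21.4, 29.8, 26.5, 25.8 and 28.1 CPM in the knockdown-labelled libraries, against 21.1, 18.9, 29.1, 24.9 and 26.8 CPM in the control libraries. Its groups overlapped, with a log2 fold change of 0.12 (SE 0.10, edgeR adjusted p = 0.314).

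Assembly chaperones pair and hold subunits while the particle is built, and 3 of 7 were called higher, beside 22.9% of all tested genes and 75.5% of those under a 5% background share. Scaled on genes under that share, 0 of the 7 were called. Of the 4 chaperones of the 20S core, which help the alpha ring to form, Psmg4 was called higher (0.30, SE 0.10, edgeR adjusted p = 0.0077). Psmg1 was at 0.21, Psmg2 at 0.33 and Psmg3 at 0.02, none of them called, with levels of 4.97 to 15.3 TPM in the knockdown-labelled and 5.26 to 14.1 TPM in the control libraries. Of the 3 chaperones of the 19S base, Psmd10 (gankyrin) rose by 0.30 (SE 0.11, edgeR adjusted p = 0.0144) and Psmd5 was at 0.14 (SE 0.08, edgeR adjusted p = 0.144). Psmd9 had 29.1, 31.9, 30.7, 24.1 and 26.1 CPM in the knockdown-labelled libraries, against 25.5, 25.1, 24.8, 21.01 and 24.6 CPM in the control libraries. Replicate 4 was lowest in both groups, the groups overlapped, and the log2 fold change was 0.23 (SE 0.10, edgeR adjusted p = 0.0399). Exons of Gm26745 on the other strand overlap 25.5% of the exon length of Psmd9. Psmc3ip was at 0.08 (SE 0.17, edgeR adjusted p = 0.73).

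Genes that work with the proteasome were also mostly called higher, beside 22.9% of all tested genes and 75.5% of those under a 5% background share. The lists were chosen with earlier results of these data known. Of 14 tested genes of ubiquitin and substrate delivery 12 were called higher and 0 lower, with a median of 0.30. Ubb rose by 0.37 (272 ± 15.6 CPM in the knockdown-labelled and 211 ± 16.0 CPM in the control libraries, SD, n = 5 each) and encodes a ubiquitin precursor. Ufd1 rose by 0.39 and Ubqln2 by 0.36, and both deliver ubiquitinated proteins. Of 9 assembly and associated factors 7 were called higher, among them the core maturation factor Pomp (0.29), Akirin2 (0.38), which brings proteasomes into the nucleus, Ecpas (0.26) and the small 19S subunit Sem1 (0.25). Adrm1 was not called (0.04, SE 0.19, edgeR adjusted p = 0.886), at a background share of 24.9%, and is named after its value was seen. The 1 that fell was the proteasome-bound deubiquitinase gene Usp14, named because it was the single fall. It had 52.5 ± 5.71 CPM in the knockdown-labelled and 62.8 ± 5.85 CPM in the control libraries (SD, n = 5 each). Its log2 fold change was -0.26 (SE 0.08, edgeR adjusted p = 0.00354), or -0.50 (adjusted p = 7.61e-07) with scaling on genes under a 5% background share. Usp14 had a background share of 5.99%. With TMM scaling 31.3% of all tested genes and 0.486% of those under a 5% share were called lower. With the other scaling 44.6% of all tested genes were called lower. Of 7 genes of transcriptional control 5 were called higher and 0 lower, with a median of 0.27. Among those called were Nfe2l1 (0.24), Ddi2 (0.27), Mafg (0.27) and Nfe2l2 (0.29).

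Of 13 genes of MHC class I processing and its inducers, 10 were called higher and 0 lower, with a median of 0.30. All 13 had a background share under 5%, the largest being 4.97% for Tap2. The count was thus near the 75.5% called higher among tested genes under that share, beside 22.9% of all tested genes. The folding helpers Canx (0.35), Tapbp (0.33), Pdia3 (0.33) and Calr (0.31) led by p. Tap1, Irf1 and the class I activator gene Nlrc5, chosen for mention after their values were seen, were at 0.12, 0.10 and 0.03 and were not called. With scaling on genes under a 5% background share 4 genes of this list were called higher (Canx, Pdia3, Calr and Tapbp) and Nlrc5 lower (-0.21, edgeR adjusted p = 0.0413), and 2 of the ubiquitin list were called higher, among them Ubb. Beside these, 6.32% of tested genes under that share were called higher and 5.46% lower with the same scaling. Of the other 2 lists 0 genes were then called higher, and Usp14 and Maff (-0.53, edgeR adjusted p = 0.0487) were called lower. Usp14 (5.99%) and Maff (16.8%) had background shares above 5%, and 44.6% of all tested genes were called lower with this scaling. The medians of the 4 lists were then 0.06, 0.05, 0.01 and 0.02 for MHC class I, ubiquitin, assembly and transcriptional control.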

How the data were processed

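Libraries were made with a strand-marking total RNA kit, per the labels' protocols. Reads were demultiplexed with bcl2fastq and GRCm38 (mm10) was the build, per the submitters' processing notes. The sources used here name no aligner, counting program, annotation or strand setting. The deposited files hold raw read counts per gene as the authors counted them, 1 file per library with 55563 entries, of which 92 spike-ins (0 to 2 reads) were left out. GENCODE M21 matched 55230 of 55471 genes, and the 241 unmatched held 0.0107% of reads. Background shares came from 1135 olfactory receptor genes and exon lengths.

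The quasi-likelihood test of edgeR 4.0.16 (robust, R 4.3.3) was run after a filterByExpr filter and TMM scaling, with Benjamini-Hochberg adjustment, threshold 0.05, and the test was checked on simulated counts. Alternatives used DESeq2 1.42.0 and limma 3.58.1. Upstream windows came from RefSeq (GRCm38.p6). Pairs of libraries of 1 group had chi-square values of 1.76 to 4.48 per degree of freedom, above counting noise. Lanes were read from codes in the libraries' names and are not stated in the labels. Figures used Python 3.11.15 and matplotlib 3.10.9.

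Members, lists and the background measure were chosen with earlier results of these data known. Full values are given for the immunosubunits, their counterparts, Psme1 to Psme3, the 4 largest other rises, called falls, and members in which 1 library stood apart. Each list names up to 4 called genes by smallest p, if they averaged 5 CPM or more. Psmb3, Psma3, Psma5, Psmf1 and Gm3375 were chosen after their values were seen. Of the cell type marker lists (CPM sums, knockdown-labelled against control), border macrophages had 696 to 810.2 against 555 to 676, astrocytes 141 to 171 against 141 to 155, endothelium 134 to 143 against 126 to 146, oligodendrocyte lineage 44.2 to 58.6 against 53.9 to 60.5, fibroblasts and mural cells 12.5 to 25.1 against 29.5 to 41.4, lymphocytes 3.24 to 7.75 against 6.56 to 13.5 and neutrophils 4.22 to 7.25 against 8.39 to 11.8. The symbol Paaf1 of the assembly list was not analysed here, and not every gene that this rule selects is reported here.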

Additional observations from a re-analysis of the deposited data

Results flagged for a closer look

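In 3 genes a single control library stood far from the other 4 of its group. Psmc2 had 62.8 CPM in control replicate 2 and 71.0 to 73.9 CPM in the other control libraries. Psmd9 had 21.01 CPM in control replicate 4 and 24.6 to 25.5 CPM in the others. Psmb10 had 53.4 CPM in control replicate 5 and 36.8 to 41.1 CPM in the others. They were found by Dixon's criterion among 108 groups of 5 libraries checked (50 genes and 4 ratios, each in both groups), and chance alone flags about 1 in 20 groups. Psmb10 passed the edgeR test without control replicate 5 (log2 fold change 0.32, adjusted p = 0.00143) and not with it (0.20, adjusted p = 0.0523). With control replicate 5 kept it also passed when knockdown-labelled replicate 3, 4 or 5 was left out (edgeR adjusted p = 0.0295, 0.0164 and 0.0188). The cause was not tested.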

How the results depend on the processing

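Calls depended on the scaling, the filter, the lane and the treatment of background. With all genes in the order higher and lower, and then members higher and lower with the members' median log2 fold change, the counts were 4418 and 6033, and 35 and 1 with 0.23 by TMM. They were 1685 and 7195, and 12 and 2 with 0.084 by upper-quartile scaling, 759 and 7888, and 6 and 2 with 0.025 by library totals, and 312 and 8589, and 2 and 3 with -0.015 by scaling on genes under a 5% background share. A stricter filter (5 CPM in 5 libraries) gave 2057 and 2239, and 14 and 1 of 48 members with 0.11. Subtracting expected background with that same scaling gave 140 and 1888, and 0 and 0 with -0.012, and 3 members had an unadjusted p under 0.05. Background density as a covariate gave 2 and 28, and 0 and 0 with -0.012, and 5 members had an unadjusted p under 0.05. This density did not overlap between the groups (0.188 to 0.343 CPM per kilobase in the knockdown-labelled and 0.425 to 0.816 in the control libraries). The fit can therefore hardly separate the label from the density, and no conclusion is drawn from its lost calls. Lane 8 alone, 2 libraries against 2, gave 67 and 153, and 1 and 0. DESeq2 called 37 members higher and 1 lower, and limma-voom 32 and 1. By limma-voom Psmb9 (0.27, adjusted p = 0.0551) and Psmd9 (0.22, adjusted p = 0.0545) lost their calls, and by DESeq2 Psmb10 gained one (0.27, adjusted p = 0.0386). With no filter the members' median was 0.36 and Psmb10, Psmb7 and Psme2 gained calls, and at an adjusted p under 0.01 there were 23 members higher.

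Values of named genes that changed sign, none called after the change, were as follows. With scaling on genes under a 5% share Psmb8 was -0.011, Psmb10 -0.048, Psmb7 -0.083, Psme2 -0.032, Psmc2 -0.010, Psmd9 -0.018, Psma5 -0.059 and Psmf1 -0.12. With background also subtracted Psmb8 was -0.025, Psmb10 -0.056, Psmb7 -0.065, Psme2 -0.025, Psmc2 -0.0046, Psma5 -0.0096 and Psmf1 -0.019. With density as covariate, which nearly follows the label, Psmb10 was -0.045, Psmb5 1.15, Psmb7 -0.22, Psme2 -0.30, Psmb11 0.30, Psmc2 -0.14, Psma5 -0.12 and Psmf1 -0.27. With library totals Psmb10 was -0.0078, Psmb7 -0.042, Psma5 -0.019 and Psmf1 -0.082, and Psmf1 was -0.024 by upper-quartile scaling. In lane 8 Psmb9 was -0.066, Psmb10 -0.075, Psme2 -0.13 and Psmb5 0.37, and in lane 7 Psma3 was 0.091. Psmb5 was 0.022 by DESeq2, 0.086 with no filter and 0.29 with its copy added. Of the ratios, Psmb9 to Psmb6 was 0.050 with background subtracted and 0.17 in lane 7, Psmb8 to Psmb5 was -0.23 in lane 8 and -0.055 with the copy added, and Psmb10 to Psmb7 was -0.24 in lane 8. The cause was not tested.

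Leaving out 1 library at a time, 30 to 38 members were called higher and 1 lower. Psmb5 ran from -0.15 to 0.17, and the differences of the ratios from 0.09 to 0.41 for Psmb8 to Psmb5, from -0.11 to 0.058 for Psmb9 to Psmb6 and from -0.053 to 0.11 for Psmb10 to Psmb7. Psmb9 lost its call without control replicate 4 (0.26) or knockdown-labelled replicate 1 (0.25) or 2 (0.25), Psmd9 without control replicate 4 (0.19) or knockdown-labelled replicate 2 (0.21) or 3 (0.22), and Psme2b without 6 of the 10 libraries in turn (0.40 to 0.50). Psmb10 gained one without control replicate 5 (0.32) or knockdown-labelled replicate 3 (0.24), 4 (0.24) or 5 (0.26), Psmb7 without control replicate 1 (0.23) or knockdown-labelled replicate 4 (0.24), and Psme2 without control replicate 4 (0.26) or 5 (0.30) or knockdown-labelled replicate 4 (0.32). Deviations of same-numbered libraries of the 2 groups from their group means had correlations of -0.23 to 0.17, and replicate 5 correlated best with its own number. Such correlations cannot show whether replicate numbers pair the samples, and the labels state no pairing. With the replicate block 36 members were called higher and 1 lower, Psmb10 was called (0.20, edgeR adjusted p = 0.0326) and the ratios kept their values (exact sign-flip permutation p, adjusted, 0.875 each).

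Low counts, 11 to 25 reads a library for Psmb5 and 13 to 45 for Psmb11, limit what can be seen for those genes.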
